A study of Mus musculus with 12 samples.

Results

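Control adipocytes of 2 mouse cell lines were compared, with 3 arrays of ST2 adipocytes and 3 arrays of 3T3-L1 adipocytes. They make up 6 of the 12 arrays of the series, those whose labels say empty vector, and no array with altered SRA (steroid receptor RNA activator) entered. ST2 is a stromal line from mouse bone marrow, with the strain label BC8. 3T3-L1 is a fibroblast line of preadipocytes, with the strain label Swiss albino. By the paper, control ST2 cells carried the retroviral vector pMSCV without an insert. For control 3T3-L1 cells the paper names pSuperior-shcontrol, a vector for a control hairpin, while the labels of these arrays say empty vector. Infected ST2 cells were selected with puromycin. For 3T3-L1 the paper names the vector pSUPERIOR.retro.puro and stably infected cells, without describing a selection step. For maintenance, ST2 cells were kept in α-MEM with 10% fetal bovine serum and 5% CO2, and 3T3-L1 cells in DMEM with 10% calf serum and 10% CO2. Both were induced after confluence with MDIT, which held 5 µM troglitazone, 0.167 µM insulin, 1 µM dexamethasone and 0.5 mM methylisobutylxanthine. From induction on, the medium of both lines held 10% fetal bovine serum. RNA was taken on day 4 from ST2 and on day 8 from 3T3-L1 adipocytes, and 5 µg of total RNA went to each array. Line, vector, medium and day changed together between the groups, so their parts in any difference cannot be told apart. Each group is 1 cell line, and the labels call its replicates biological without naming separate infections, so the p-values measure the spread between these cultures.

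Adipocytes arise from mesenchymal precursors when glucocorticoid, insulin and cyclic AMP signals switch on C/EBP transcription factors and PPARγ, the receptor that troglitazone binds. These factors then hold in place the genes for lipid uptake, lipid storage and adipokine release. Marrow stroma can also give rise to bone and cartilage cells and feeds blood cell formation through secreted niche factors. Mesenchymal cells keep a record of their place in the body in their Hox genes, whatever cell type they become.

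Expression was given as log2 values of robust multi-array average (RMA), 1 per probe set and array, and these values carry no call of detection. The median over all 45037 probe sets tested lay between 6.45 and 6.52 on the 6 arrays, so that values of about 4 to 6 belong to the dim part of the scale. With 3 arrays a group, their number limits the precision of every value. Arrays of 1 group correlated at 0.985 to 0.997 and arrays of different groups at 0.945 to 0.957. A first principal component with 77.4% of the variance separated the lines. Control ST2 replicate 2 stood apart from the other ST2 arrays. Each array was set against the average of the remaining replicates from the same line, over probe sets with a mean of at least 8. The median deviation was -0.43 for control ST2 replicate 2, against 0.24 and 0.18 for ST2 replicates 1 and 3. For the 3T3-L1 arrays it lay between -0.07 and 0.09. Several results are therefore also given without control ST2 replicate 2. Of the medians of 49 gene lists described here, 18, all between -0.15 and 0.07, changed sign when 1 array was left out, 9 of them without this one, and no direction is read from medians of that size. Differences are ST2 minus 3T3-L1 on the log2 scale throughout, so that a positive one is higher in ST2 and a negative one is higher in 3T3-L1. A gene was read from its single-symbol probe set of highest mean, and levels of different genes are not compared. It is called different where limma gave a Benjamini-Hochberg adjusted p under 0.05 over all probe sets and the log2 difference was at least 1 in size.

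Both groups bore the marks of adipocytes. Fabp4, which carries fatty acids in the cytosol of fat cells, had log2 values of 14.92, 14.62 and 14.79 in ST2 and 14.88, 14.83 and 14.96 in 3T3-L1. The groups overlapped, with a log2 difference of -0.11 (SE 0.13, adjusted p = 0.644). Adipoq, the gene of adiponectin, had values of 14.59, 14.29 and 14.45 in ST2 and 14.66, 14.76 and 14.82 in 3T3-L1, and Cebpa, the gene of C/EBPα, of 13.35, 12.85 and 12.99 in ST2 and 13.00, 13.11 and 13.37 in 3T3-L1. Neither was called, with log2 differences of -0.30 (SE 0.13, adjusted p = 0.156) and -0.10 (SE 0.17, adjusted p = 0.775). Over the 6 adipocyte markers measured, means ran from 11.64 to 14.78 in ST2 and from 12.68 to 14.89 in 3T3-L1. The markers of other cells the cultures could hold were mostly dim in both. Of the 5 macrophage and blood markers, means ran from 4.05 to 8.14 in ST2 and from 4.10 to 7.19 in 3T3-L1, and Cd68, with 8.14, 7.80 and 8.48 in ST2 and 8.30, 6.35 and 6.91 in 3T3-L1, had overlapping groups and was not called. Endothelial markers lay between 4.53 and 6.66 in ST2 and between 4.46 and 6.64 in 3T3-L1. The bone cell markers Sp7, Ibsp and Alpl lay between 4.86 and 7.08 in ST2, although ST2 is a marrow line, and between 4.92 and 6.99 in 3T3-L1. Skeletal muscle markers lay between 5.47 and 7.08 and neuronal markers between 3.86 and 7.70 over both lines. Epithelial markers lay between 3.79 and 8.94 over both lines. The part of other cells in any result was not tested. The stromal markers had means of 8.85 to 14.03 in both lines with 1 exception. Thy1, a surface antigen of fibroblasts and many stromal cells, had values of 5.04, 5.67 and 5.41 in ST2 and 9.52, 10.02 and 9.62 in 3T3-L1, which is 20.3-fold higher in 3T3-L1 (log2 difference -4.35, SE 0.19, adjusted p = 4.47e-07). Because whole cultures were measured, fewer cells that express a gene and less of its RNA in each cell cannot be told apart in any result.

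Of 18193 genes, 852 were called higher in ST2 and 1007 higher in 3T3-L1. Together this is 10.2% of the genes, with 4.68% in the first and 5.54% in the second direction, and these shares are the background for every list below. Over all probe sets the calls were 3858, or 8.57%, with 1761 higher in ST2 and 2097 higher in 3T3-L1. In 1854 of the 1859 called genes the arrays of the 2 lines did not overlap. The call rule itself makes this likely with 3 arrays a group, so it adds little to the calls. Genes not called, such as Adipoq and B2m, could also be without overlap, and their share of all genes is not given. Differences of at least 3 on the log2 scale were found for 98 genes higher in ST2 and 127 higher in 3T3-L1. The median over all genes was -0.02. Of 1027 called genes with more than 1 probe set, 645 had a further probe set called the same way and 3 had one called the opposite way. Of the called genes named here, 152 had more than 1 probe set, and in 34 of these a single one was called. In 25 of the 34 another lay within 0.5 of 0, namely in Adamts12, Ccl6, Cenpf, Col5a3, Dcn, Des, Esr1, Fbln5, Fdps, Fzd7, Grb14, H2-Q5, Hoxa10, Igf2, Impact, Insr, Lifr, Mrap, Myh11, Plat, Rspo2, Snap25, Tap1, Top2a and Wnt5a. The balance of the directions depended on control ST2 replicate 2. Without it, 2160 probe sets were called higher in ST2 and 1699 higher in 3T3-L1, so that the share higher in ST2 went from 45.6% to 56%.

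**Figure D1:**
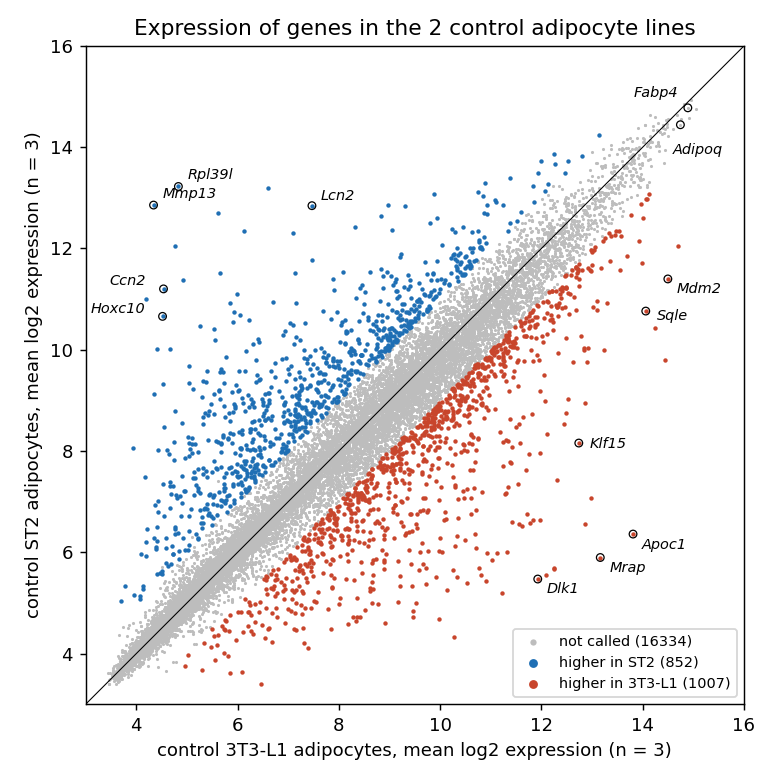
Mean log2 expression (RMA) of each of 18193 genes in 3 control 3T3-L1 arrays (horizontal) and 3 control ST2 arrays (vertical), with genes called higher in ST2 in blue, genes called higher in 3T3-L1 in red and the line of equal levels in black. Fabp4 and Adipoq lie at the upper end of the line, while Mmp13 and Rpl39l, above 12 in ST2 and below 5 in 3T3-L1, and Apoc1 and Mrap, below 7 in ST2 and above 13 in 3T3-L1, lie far from it.

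The 12 genes highest in ST2 relative to 3T3-L1 began with Mmp13. Mmp13, a collagenase of cartilage and bone remodeling, had log2 values of 12.96, 12.70 and 12.91 in ST2 and 4.53, 4.26 and 4.24 in 3T3-L1. It was near the bottom of the scale on every 3T3-L1 array and was 366.0-fold higher in ST2 (log2 difference 8.52, SE 0.14, adjusted p = 5.31e-09). Rpl39l, a close relative of a ribosomal protein gene, came next with 13.49, 12.92 and 13.26 in ST2 and 4.95, 4.71 and 4.83 in 3T3-L1, or 336.0-fold higher in ST2 (log2 difference 8.39, SE 0.16, adjusted p = 8.73e-09). Whether its probe set also binds RNA of that relative was not tested. Glipr1 (12.05 ± 0.38 in ST2 and 4.77 ± 0.23 in 3T3-L1), Sptlc3 (12.70 ± 0.26 in ST2 and 5.61 ± 0.52 in 3T3-L1), a subunit of the enzyme that begins sphingolipid synthesis, and Mme (11.01 ± 0.16 in ST2 and 4.19 ± 0.13 in 3T3-L1), the peptidase known as CD10, followed with log2 differences of 7.28, 7.09 and 6.82. Ccn2, the connective tissue growth factor, had values of 11.24, 10.81 and 11.56 in ST2 and 4.59, 4.78 and 4.24 in 3T3-L1. Il1rn, the secreted antagonist of the interleukin-1 receptor, was bright on all ST2 arrays with 13.35, 12.89 and 13.38 in ST2 and 6.51, 6.72 and 6.57 in 3T3-L1, and was 97.3-fold higher in ST2 (log2 difference 6.60, SE 0.16, adjusted p = 2.01e-08). Rspo2, which strengthens Wnt signals, Grb10, an adaptor that restrains insulin and IGF receptors, and Hoxc10 differed by 6.45, 6.22 and 6.14. Gpm6b and the receptor phosphatase gene Ptprg close the 12, with 5.86 and 5.61.

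At the other end, the 12 genes highest in 3T3-L1 began with Apoc1. Apoc1, a small apolipoprotein, had log2 values of 5.59, 6.89 and 6.60 in ST2 and 13.58, 13.90 and 13.95 in 3T3-L1 and was 175.0-fold higher in 3T3-L1 (log2 difference -7.45, SE 0.29, adjusted p = 2.1e-07). Mrap, which brings the ACTH receptor to the surface of fat and adrenal cells, had values of 6.22, 5.53 and 5.94 in ST2 and 13.15, 13.10 and 13.23 in 3T3-L1. The lines were again far apart, with Mrap 154.0-fold higher in 3T3-L1 (log2 difference -7.27, SE 0.18, adjusted p = 2.01e-08), while its other probe set was not called, at 0.04. Cyb561, an electron carrier of membranes, Egln3, an oxygen-sensing prolyl hydroxylase, and Celf2, a splicing factor, differed, with log2 differences of -6.59, -6.56 and -6.54, and for Celf2 this held in 4 of its 7 probe sets. Dlk1, known as preadipocyte factor 1 for holding back fat cell formation, was high in the 3T3-L1 and not in the ST2 cultures, with 5.21, 5.70 and 5.51 in ST2 and 11.69, 12.13 and 11.96 in 3T3-L1. It was 87.8-fold higher in 3T3-L1 (log2 difference -6.46, SE 0.17, adjusted p = 3.1e-08), while its other probe set was not called. Dcn and Aspn are proteoglycans of the matrix, Gstk1 is a glutathione transferase, Cox8b a subunit of cytochrome oxidase known from brown fat and muscle, Itih4 a secreted protein and Kcnk3 a potassium channel. They differed, with log2 differences of -6.29, -5.94, -6.03, -5.90, -5.46 and -5.34.

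**Figure D2:**
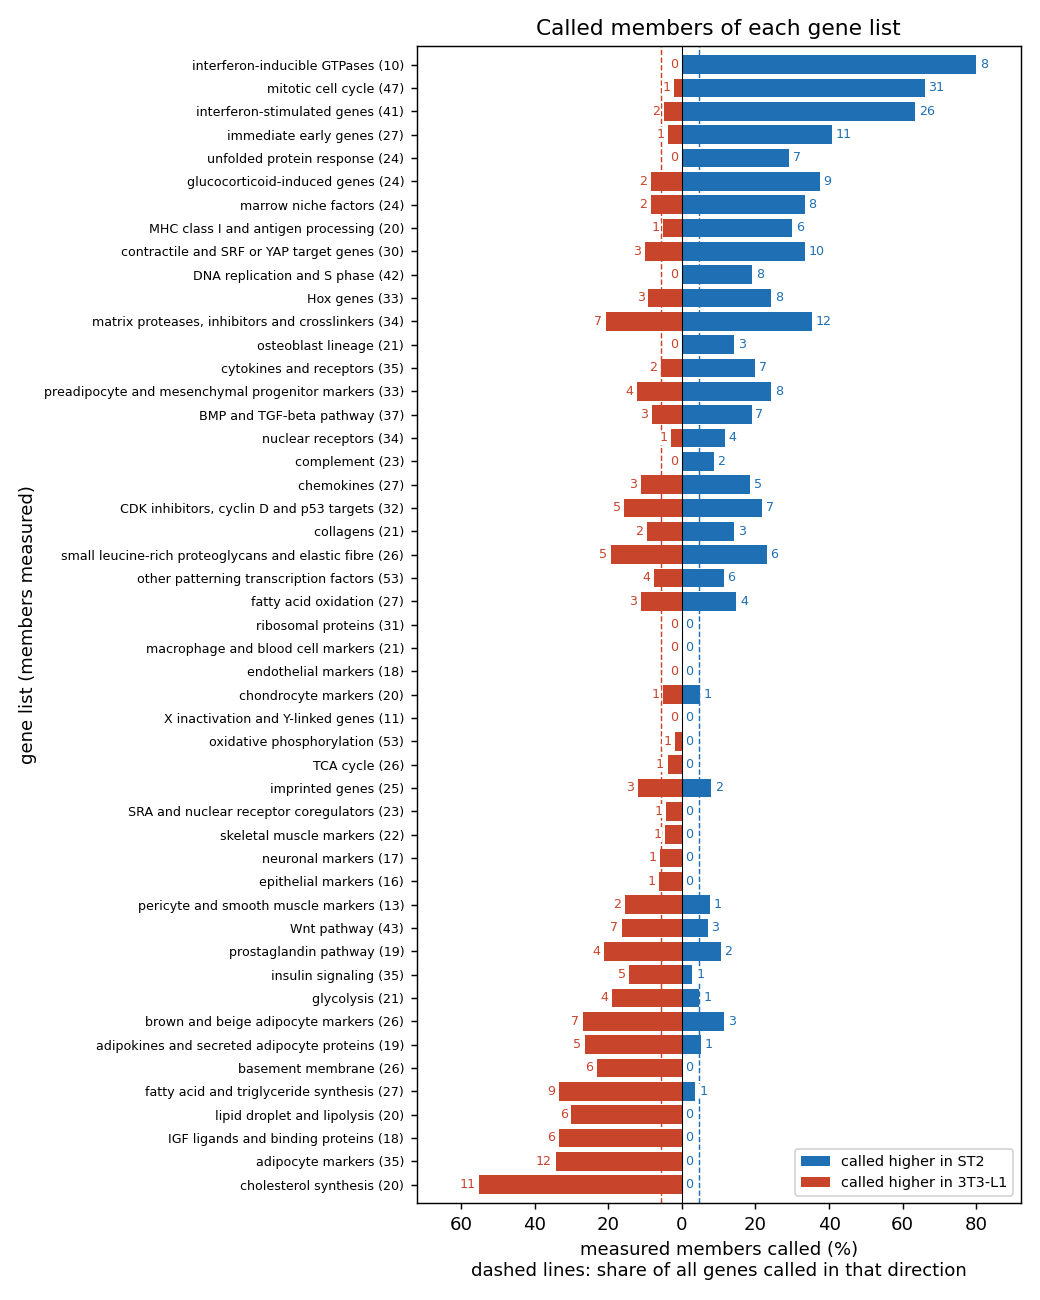
Share of the measured members of each of 49 gene lists (percent, horizontal) called higher in ST2 (blue, to the right) or higher in 3T3-L1 (red, to the left), with the number of members at the bar's end, the list size in parentheses and dashed lines at the share of all genes, 4.68% and 5.54%. Interferon-inducible GTPases (8 of 10), mitotic genes (31 of 47) and interferon-stimulated genes (26 of 41) reach farthest to the right, and cholesterol synthesis (11 of 20) farthest to the left.

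Adipocyte genes were shared in part. Of 35 adipocyte markers, 12 were called higher in 3T3-L1, 0 higher in ST2 and 23 were not called, with a median log2 difference of -0.35. Fabp5 and Lpl, the lipoprotein lipase, were near the top of the scale in both lines, with 14.35 ± 0.12 in ST2 and 14.61 ± 0.05 in 3T3-L1 for the one and 14.57 ± 0.12 in ST2 and 14.92 ± 0.11 in 3T3-L1 for the other. Klf15, a glucocorticoid-responsive factor of late adipogenesis, had log2 values of 8.04, 8.05 and 8.38 in ST2 and 12.81, 12.65 and 12.76 in 3T3-L1. Every 3T3-L1 array was above 12 and no ST2 array above 9, and Klf15 was 23.9-fold higher in 3T3-L1 (log2 difference -4.58, SE 0.14, adjusted p = 5.13e-08). Pck1, whose enzyme makes glycerol for triglyceride in fat cells, had values of 5.37, 5.71 and 5.44 in ST2 and 9.72, 10.21 and 9.83 in 3T3-L1, or was 21.3-fold higher in 3T3-L1 (log2 difference -4.41, SE 0.17, adjusted p = 1.71e-07). Slc2a4, the insulin-regulated glucose transporter GLUT4, stood at 10.19, 10.01 and 9.92 in ST2 and 12.88, 12.83 and 12.83 in 3T3-L1. The groups were tight and apart, and Slc2a4 was 7.0-fold higher in 3T3-L1 (log2 difference -2.81, SE 0.13, adjusted p = 4.88e-07). Ebf2 (4.11 ± 0.13 in ST2 and 7.40 ± 0.25 in 3T3-L1) and Cidea (5.33 ± 0.20 in ST2 and 9.45 ± 0.25 in 3T3-L1) were also higher in 3T3-L1. Pparg, the master gene itself, had values of 12.01, 11.17 and 11.74 in ST2 and 12.57, 12.67 and 12.79 in 3T3-L1. All 3T3-L1 arrays were above all ST2 arrays, and Pparg was 2.05-fold higher in 3T3-L1 (log2 difference -1.03, SE 0.20, adjusted p = 0.00533). That value lies just past the fold minimum. Without control ST2 replicate 2 the log2 difference was -0.80, and without 3T3-L1 replicate 3 it was -0.98, and Pparg was called in neither. Lep, the gene of leptin, was dim on every array, between 4.42 and 4.72.

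Secreted products of fat cells went both ways. Of 19 measured, 5 were called higher in 3T3-L1 and 1 higher in ST2 (2 without ST2 replicate 1), with a median of -0.10, or 0.01 without control ST2 replicate 2. Retn, the gene of resistin, had log2 values of 12.52, 11.76 and 11.85 in ST2 and 14.55, 14.79 and 14.77 in 3T3-L1 and was 6.33-fold higher in 3T3-L1 (log2 difference -2.66, SE 0.20, adjusted p = 1.42e-05). Lcn2, a lipocalin that binds iron carriers of bacteria, was the one called the other way, with 13.11, 12.65 and 12.77 in ST2 and 7.88, 7.44 and 7.09 in 3T3-L1. No ST2 array was below 12 and no 3T3-L1 array above 8, so that Lcn2 was 41.6-fold higher in ST2 (log2 difference 5.38, SE 0.21, adjusted p = 1.99e-07). Rarres2 (chemerin), Apoe, Nrg4 and Nampt were higher in 3T3-L1, with log2 differences of -1.60, -2.04, -1.45 and -1.16. Adiponectin, haptoglobin (Hp, 13.41 ± 0.25 in ST2 and 13.52 ± 0.20 in 3T3-L1), angiotensinogen (Agt, 12.69 ± 0.32 in ST2 and 12.85 ± 0.28 in 3T3-L1) and Angptl4 (11.55 ± 0.40 in ST2 and 11.31 ± 0.20 in 3T3-L1) were bright in both lines and were not called.

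Enzymes that make and hold fat were higher in 3T3-L1 where they were called, with 1 exception. Of 27 genes that build fatty acids and triglyceride, 9 were called higher in 3T3-L1 and 1 higher in ST2, with a median of -0.73. The 9 became 6 without control ST2 replicate 2. Thrsp, a lipogenic protein that thyroid hormone induces, had log2 values of 10.81, 10.47 and 10.02 in ST2 and 13.96, 14.39 and 14.36 in 3T3-L1 and was 14.0-fold higher in 3T3-L1 (log2 difference -3.81, SE 0.21, adjusted p = 1.83e-06). Dgat2, which adds the last fatty acid to triglyceride, had 11.71, 11.59 and 11.82 in ST2 and 13.81, 14.01 and 14.14 in 3T3-L1. It was 4.86-fold higher in 3T3-L1 (log2 difference -2.28, SE 0.14, adjusted p = 3.43e-06). Fads2, Scd3, Gpam and Acly differed, with log2 differences of -2.75, -1.87, -1.47 and -1.21. Elovl3, an elongase of very long fatty acids, was the exception, with 9.11, 8.70 and 8.33 in ST2 and 6.83, 7.59 and 6.96 in 3T3-L1 and a log2 difference of 1.58 (SE 0.24, adjusted p = 0.00131). Scd1, the main desaturase of fat cells, was near the top of the scale in both lines (14.75 ± 0.14 in ST2 and 15.05 ± 0.06 in 3T3-L1), and Fasn, the fatty acid synthase, with 13.26, 12.80 and 12.99 in ST2 and 13.49, 13.99 and 13.85 in 3T3-L1, had a log2 difference of -0.76 (SE 0.17, adjusted p = 0.0121), short of the fold minimum.

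Of 20 genes of the lipid droplet and of lipolysis, 6 were called higher in 3T3-L1 and 0 higher in ST2, with a median of -0.20. The carboxylesterase genes Ces1f (6.39, 5.88 and 5.72 in ST2 and 10.89, 11.50 and 10.96 in 3T3-L1) and Ces1d (7.70, 7.39 and 6.10 in ST2 and 10.20, 11.10 and 10.54 in 3T3-L1) were among them, with log2 differences of -5.12 and -3.55. These genes are close relatives, and binding of one gene's RNA to the other's probe set was not tested. Pde3b, the phosphodiesterase through which insulin holds back lipolysis, had values of 5.72, 5.56 and 6.68 in ST2 and 11.15, 11.07 and 10.55 in 3T3-L1. It was 30.7-fold higher in 3T3-L1 (log2 difference -4.94, SE 0.28, adjusted p = 2.44e-06). Cidea, Pnpla3 and G0s2, an inhibitor of triglyceride lipase, were higher in 3T3-L1, with log2 differences of -4.12, -3.04 and -1.43. The lipases themselves did not pass, with log2 differences of -0.38 for Pnpla2 (adipose triglyceride lipase) and -0.33 for Lipe (hormone-sensitive lipase).

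Brown and beige fat genes did not move as a block. Of 26 such markers, 7 were called higher in 3T3-L1 and 3 higher in ST2, with a median of 0.06, or -0.01 without control ST2 replicate 2. Cox8b had log2 values of 7.38, 7.02 and 6.83 in ST2 and 12.74, 13.08 and 13.09 in 3T3-L1 and Cidea of 5.23, 5.21 and 5.57 in ST2 and 9.25, 9.38 and 9.74 in 3T3-L1. On neither gene did an array of one line come within 3 log2 units of the other line, and Cidea was 17.4-fold higher in 3T3-L1 (log2 difference -4.12, SE 0.17, adjusted p = 2.7e-07). Ppargc1a, the coactivator that drives mitochondrial genes, had 4.70, 4.94 and 4.32 in ST2 and 8.58, 8.71 and 7.72 in 3T3-L1. It was 12.8-fold higher in 3T3-L1 (log2 difference -3.68, SE 0.26, adjusted p = 9.58e-06), and all 5 of its probe sets were called. Kcnk3, Ebf2 and Pank1 were higher in 3T3-L1 as well. Hspb7 (8.07, 8.48 and 8.30 in ST2 and 5.68, 5.87 and 5.60 in 3T3-L1), Pdk4 and Elovl3 were called higher in ST2, with log2 differences of 2.57, 1.60 and 1.58.

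Few genes of oxidative phosphorylation (1.89%) and of the TCA cycle (3.85%) were called, against 10.2% of all genes. For glycolysis and fatty acid oxidation the shares were 23.8% and 25.9%. Of 53 subunits of oxidative phosphorylation, 1 was called, Cox7a1, a muscle and brown fat form of a cytochrome oxidase subunit, with 7.91, 7.66 and 8.53 in ST2 and 9.66, 10.12 and 9.48 in 3T3-L1 and a log2 difference of -1.72 (SE 0.24, adjusted p = 0.000724). The median of the list was -0.26, and without ST2 replicate 1 a second member was called higher in 3T3-L1. On 2 of the 3 ST2 arrays its mean level, 12.92 and 13.10, was near that of the 3T3-L1 arrays, 13.11 to 13.26, while control ST2 replicate 2 was at 12.54. Of 26 genes of the TCA cycle and its entry, 1 was called higher in 3T3-L1, Pdk1, the kinase that shuts pyruvate dehydrogenase, with -1.85, and the median was -0.29. There were 2 called higher in ST2 without control ST2 replicate 2. Of 21 glycolysis genes, 4 were called higher in 3T3-L1 and 1 higher in ST2, with a median of -0.15, but 1 and 2 without that array. The hexokinases were turned against each other. Hk1 had values of 11.24, 10.64 and 11.33 in ST2 and 9.42, 9.18 and 8.96 in 3T3-L1, and Hk2 of 11.24, 10.90 and 11.31 in ST2 and 12.24, 12.20 and 12.01 in 3T3-L1, so that Hk1 was higher in ST2 (1.88) and Hk2 in 3T3-L1 (-1.00, lost without control ST2 replicate 2, without 3T3-L1 replicate 1 and without 3T3-L1 replicate 2). Fatty acid oxidation had 4 genes higher in ST2 and 3 higher in 3T3-L1 of 27, with a median of -0.31. Cpt1a, the gate of fatty acids into mitochondria, had 10.64, 10.10 and 10.45 in ST2 and 8.35, 8.16 and 8.21 in 3T3-L1. It was 4.46-fold higher in ST2 (log2 difference 2.16, SE 0.16, adjusted p = 1.18e-05). Ehhadh, a peroxisomal enzyme, and Pdk4 were also higher in ST2, by 2.71 and 1.60, and Decr1 and Etfb were higher in 3T3-L1, with log2 differences of -1.32 and -1.08. The call of Etfb was lost without control ST2 replicate 2 or 3T3-L1 replicate 2, which left 2 genes of this direction without the former.

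Cholesterol synthesis was the list with the largest share of members called higher in 3T3-L1. Of 20 measured, 11 were called higher in 3T3-L1, 0 higher in ST2 and 9 were not called, with a median of -1.07 and 1 member above 0. The count was 9 without control ST2 replicate 2. Sqle, the squalene epoxidase, had log2 values of 10.98, 10.44 and 10.87 in ST2 and 14.17, 14.01 and 14.00 in 3T3-L1. The 3T3-L1 arrays lay 3 log2 units above the nearest ST2 array, and Sqle was 9.83-fold higher in 3T3-L1 (log2 difference -3.30, SE 0.16, adjusted p = 8.23e-07). Msmo1, a sterol demethylating enzyme, had 10.58, 9.78 and 10.44 in ST2 and 13.00, 12.71 and 12.63 in 3T3-L1 and was 5.71-fold higher in 3T3-L1 (log2 difference -2.51, SE 0.21, adjusted p = 2.83e-05). Fdft1, which makes squalene, Idi1 and Fdps, which make its isoprenoid parts, and Sc5d, a late desaturase, differed, with log2 differences of -2.15, -2.05, -1.97 and -1.66. Insig1, which holds the sterol sensor back in the membrane and is itself a sterol-regulated gene, had 11.11, 10.21 and 10.45 in ST2 and 10.82, 10.56 and 10.22 in 3T3-L1. Its groups overlapped, with a log2 difference of 0.06 (SE 0.24, adjusted p = 0.919). Ebp, Lss and Nsdhl were not called either. RefSeq promoters (250 bases before to 50 after the start, GRCm38.p6) were at hand for 8 of the 11 called genes, and all 8 held the letters CCAAT on either strand, as did all 16 measured members with a promoter. Some genes have more than 1 promoter. Counted by promoter, these letters were in 8 of 9 for the called genes (88.9%) and in 16 of 19 for the measured members (84.2%). They were in 37.4% of all 32851 promoters. The element ATCACNCCAC of the low density lipoprotein receptor gene was in 0 of the 8 and in 0.234% of all. The windows below show CCAAT in capitals (ATTGG where it is on the other strand) upstream of the start of 3 of these genes, described above; each is read on the strand of the gene.
Idi1, chr13:8885549-8885578 (plus strand, GRCm38.p6): tgcctccagctgATTGGcgagcccgggcat
Msmo1, chr8:64733657-64733686 (minus strand, GRCm38.p6): ccttagcacggaCCAATcactgcacggcga
Sc5d, chr9:42264307-42264336 (minus strand, GRCm38.p6): cgccggctgctgATTGGccggctgcctgca

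**Figure D3:**
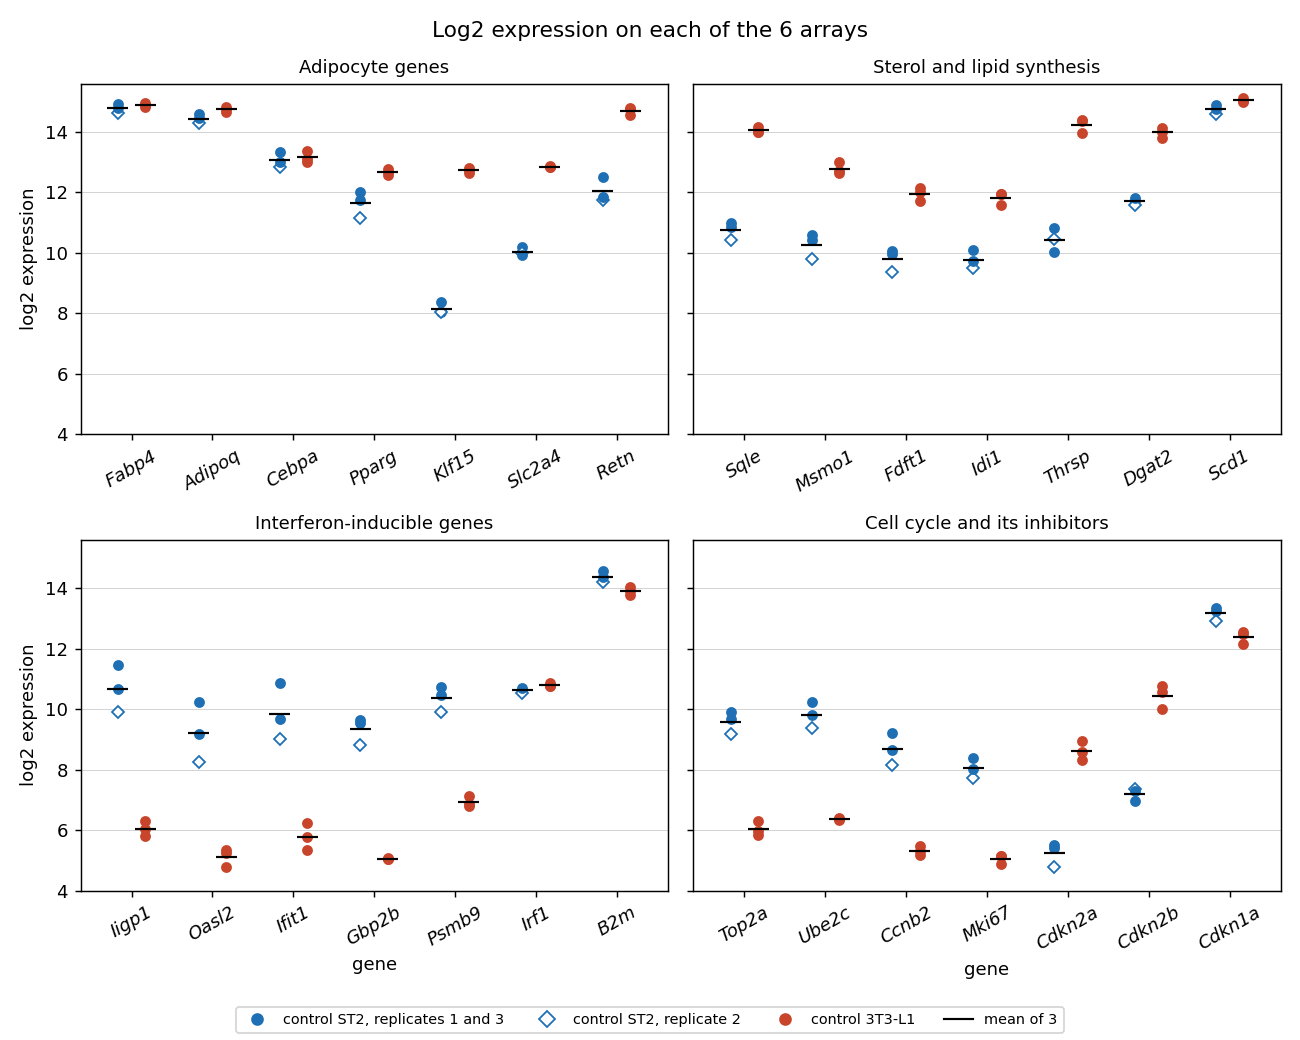
Log2 expression (RMA, vertical) on each of the 6 arrays for 28 genes of 4 groups, with control ST2 in blue (replicate 2 as an open diamond), control 3T3-L1 in red and the mean of 3 arrays as a bar. Fabp4, Adipoq, Cebpa and Scd1 lie together in both lines, Sqle to Dgat2 lie higher in 3T3-L1, Iigp1 to Psmb9 and Top2a to Mki67 lie higher in ST2, and Cdkn2a and Cdkn2b lie higher in 3T3-L1.

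In insulin and IGF signaling, most called genes were higher in 3T3-L1. Of 35 genes of insulin signaling, 5 were called higher in 3T3-L1 and 1 higher in ST2, with a median of -0.11, and without control ST2 replicate 2 these were 3 and 2. Insr, the receptor, had values of 9.79, 9.18 and 9.49 in ST2 and 10.68, 10.50 and 10.50 in 3T3-L1 and a log2 difference of -1.07 (SE 0.17, adjusted p = 0.00146) by 1 of its 3 probe sets, which was -0.92 and not called without that array. Irs2 (-1.43), Foxo1 (-1.23) and Slc2a4 were higher in 3T3-L1. Grb10, which is imprinted and binds both receptors, was the one higher in ST2. It had values of 12.42, 12.09 and 12.51 in ST2 and 6.59, 5.97 and 5.81 in 3T3-L1 and was 74.3-fold higher in ST2 (log2 difference 6.22, SE 0.21, adjusted p = 8.98e-08), in all 3 of its probe sets. Its relative Grb14 was called higher in 3T3-L1, with a log2 difference of -1.15, and lost its call without control ST2 replicate 2 or 3T3-L1 replicate 1.

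Of 18 genes of the IGF system, 6 were called higher in 3T3-L1 and 0 higher in ST2, with a median of -0.24. Igf1 had log2 values of 6.25, 6.47 and 6.22 in ST2 and 10.14, 10.35 and 10.53 in 3T3-L1, and Igf2, the fetal growth factor, of 6.63, 7.77 and 6.75 in ST2 and 10.17, 10.39 and 10.51 in 3T3-L1. For both ligands the 3T3-L1 arrays lay above 10 and the ST2 arrays below 8, and Igf1 was 16.3-fold higher in 3T3-L1 (log2 difference -4.03, SE 0.15, adjusted p = 1.33e-07), in all 4 of its probe sets. The other probe set of Igf2 was not called, nor was the receptor Igf1r (0.65). Of the proteins that bind or free the ligands, Igfbp7, Igfals, Pappa and Igfbp4 were higher in 3T3-L1, with log2 differences of -2.17, -1.56, -1.40 and -1.09. Igfbp4 lost its call without control ST2 replicate 2 or 3T3-L1 replicate 3. Igf2bp1 and Igf2bp3, RNA-binding proteins of fetal cells, were not called by the probe set of highest mean, but 2 of 4 and 5 of 6 of their probe sets were called higher in 3T3-L1, with differences of down to -2.71 and -1.68.

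Matrix genes differed in both directions. Among 34 proteases, inhibitors and crosslinkers, 12 were called higher in ST2 and 7 higher in 3T3-L1, with a median of 0.57. Mmp2, a gelatinase of stroma, ran the other way from Mmp13. It had log2 values of 6.65, 6.46 and 6.69 in ST2 and 11.17, 11.55 and 11.56 in 3T3-L1, and was 28.3-fold higher in 3T3-L1 (log2 difference -4.82, SE 0.15, adjusted p = 5.46e-08). Tgm2, a crosslinking transglutaminase, with 12.63, 12.07 and 12.54 in ST2 and 8.39, 8.35 and 8.22 in 3T3-L1, and Plod2, a lysyl hydroxylase of collagen, with 11.31, 10.92 and 11.28 in ST2 and 8.30, 7.82 and 7.58 in 3T3-L1, were higher in ST2. They differed by 4.10 and 3.27. The inhibitors Timp1 and Timp3 were higher in ST2, by 2.79 and 2.02, and Timp4 was higher in 3T3-L1, with a log2 difference of -2.41. Plat, the tissue plasminogen activator, was higher in ST2 (2.62), and Adamts15, Adamts12 and Adamts1 were higher in 3T3-L1 (-2.90, -2.31 and -2.15).

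Of 26 small proteoglycans and elastic fibre genes, 6 were called higher in ST2 and 5 higher in 3T3-L1, with a median of 0.07. Decorin (Dcn) had values of 6.72, 6.84 and 6.13 in ST2 and 12.57, 12.95 and 13.05 in 3T3-L1, lumican (Lum) of 5.87, 5.38 and 5.40 in ST2 and 10.29, 10.88 and 11.26 in 3T3-L1 and periostin (Postn) of 6.60, 6.50 and 6.48 in ST2 and 11.17, 11.71 and 11.97 in 3T3-L1. In each of these the 3T3-L1 arrays were above 10 and the ST2 arrays below 7. With Aspn and Fbln5 (-2.90) these are the 5 higher in 3T3-L1. Thbs2 (3.53), Emilin2 (3.50), versican (Vcan, 2.03), Ltbp1 (2.00), fibronectin (Fn1, 1.62) and Thbs1 (1.37) were higher in ST2. Biglycan (Bgn), with 13.30, 12.94 and 13.40 in ST2 and 13.24, 13.37 and 13.45 in 3T3-L1, was bright in both and was not called.

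The collagens had few calls. Of 21 collagens, 3 were called higher in ST2 and 2 higher in 3T3-L1, with a median of -0.09, or 0.02 without 3T3-L1 replicate 3. Of the main fibrillar collagens, Col1a2 (13.85 ± 0.21 in ST2 and 14.03 ± 0.06 in 3T3-L1) had a log2 difference of -0.18 (SE 0.14, adjusted p = 0.46). Col3a1 (13.40 ± 0.28 in ST2 and 13.94 ± 0.03 in 3T3-L1) and Col1a1 (11.32 ± 0.40 in ST2 and 11.98 ± 0.26 in 3T3-L1) did not overlap between the lines and stood at log2 differences of -0.54 (adjusted p = 0.0376) and -0.67 (adjusted p = 0.0536), short of the fold minimum. Col8a1, known from vessel walls and cornea, had 9.77, 9.39 and 9.57 in ST2 and 6.54, 6.52 and 6.95 in 3T3-L1 and was 7.5-fold higher in ST2 (log2 difference 2.91, SE 0.16, adjusted p = 2.06e-06). Col15a1, known from basement membrane zones, had 7.81, 7.14 and 7.53 in ST2 and 10.61, 9.95 and 10.19 in 3T3-L1 and was 6.76-fold higher in 3T3-L1 (log2 difference -2.76, SE 0.21, adjusted p = 1.68e-05). Col6a3 and Col5a3 were higher in ST2, by 1.12 and 1.07, and Col11a1 was higher in 3T3-L1, with a log2 difference of -2.69. Col5a3 lost its call without ST2 replicate 1 or 3T3-L1 replicate 1. Basement membrane genes, which sheathe mature fat cells, were higher in 3T3-L1 where they were called, 6 of 26, with a median of -0.06. In ST2, 0 were called higher, and 1 without control ST2 replicate 2. Lama4, the laminin chain of fat and vessels, had values of 6.08, 6.21 and 5.73 in ST2 and 11.35, 11.23 and 11.38 in 3T3-L1. It was 39.8-fold higher in 3T3-L1 (log2 difference -5.31, SE 0.15, adjusted p = 4.01e-08). Npnt, Nid2, Col4a5, Ntn1 and Nid1 differed, with log2 differences of -4.52, -2.17, -1.86, -1.79 and -1.40. Col4a1 and Col4a2, the common collagen IV chains, stood at 13.73 ± 0.24 in ST2 and 13.79 ± 0.05 in 3T3-L1 and at 13.26 ± 0.32 in ST2 and 13.31 ± 0.01 in 3T3-L1 and were not called.

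Of 30 contractile genes and targets of the SRF and YAP factors, 10 were called higher in ST2 and 3 higher in 3T3-L1, with a median of 0.63. Ccn2 and Ankrd1 are standard YAP targets. Ankrd1 had values of 9.35, 9.13 and 9.60 in ST2 and 5.31, 5.49 and 5.36 in 3T3-L1 and was 15.7-fold higher in ST2 (log2 difference 3.97, SE 0.15, adjusted p = 1.75e-07). Tpm2, Myl9, Cnn2 and Actn1, parts of actin bundles, were higher in ST2 by 2.77, 2.02, 1.68 and 1.63. Desmin (Des), with 8.16, 8.08 and 8.02 in ST2 and 10.35, 9.87 and 9.74 in 3T3-L1, Myh10 (-1.90) and Myh11 (-1.13) were higher in 3T3-L1. Acta2, smooth muscle actin, had 11.04, 11.57 and 11.66 in ST2 and 10.66, 10.75 and 11.16 in 3T3-L1 and was not called.

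Hox genes differed by cluster. Of 33 measured, 8 were called higher in ST2 and 3 higher in 3T3-L1, with a median of 0.21, and without control ST2 replicate 2 the 8 became 10 and the median 0.06. On chromosome 15, the Hoxc genes were higher in ST2, 5 of 7 by call. Hoxc10 had log2 values of 10.95, 10.20 and 10.83 in ST2 and 4.45, 4.48 and 4.63 in 3T3-L1, and Hoxc8 of 9.56, 9.05 and 9.34 in ST2 and 4.33, 4.66 and 4.61 in 3T3-L1. The 3T3-L1 arrays were all below 5 in both genes, and Hoxc10 was 70.6-fold higher in ST2 (log2 difference 6.14, SE 0.19, adjusted p = 6.48e-08). Hoxc13 (2.90), Hoxc6 (2.37) and Hoxc4 (1.27) followed, and Hoxc9 was at 0.97 (SE 0.13, adjusted p = 0.000646), just short of the fold minimum. Of the Hoxa genes, Hoxa10 and Hoxa9 were higher in ST2, the former with 8.92, 8.44 and 8.99 in ST2 and 4.92, 4.75 and 4.64 in 3T3-L1 and a difference of 4.01 by 1 of its 2 probe sets, and the latter by 1.86. Of the Hoxd genes 2 were called, both higher in 3T3-L1. Hoxd8 had values of 5.80, 5.94 and 5.30 in ST2 and 11.08, 10.74 and 10.50 in 3T3-L1, and was 34.1-fold higher in 3T3-L1 (log2 difference -5.09, SE 0.20, adjusted p = 2.4e-07). Its neighbour Hoxd9, with 7.21, 6.85 and 7.16 in ST2 and 9.67, 9.60 and 9.72 in 3T3-L1, was 6.02-fold higher in 3T3-L1 (log2 difference -2.59, SE 0.14, adjusted p = 1.53e-06), while the means of Hoxd10 to Hoxd13 lay below 6 in both lines. Hoxb2 was higher in 3T3-L1 (-1.31) and Hoxb6 higher in ST2 (1.40).

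**Figure D4:**
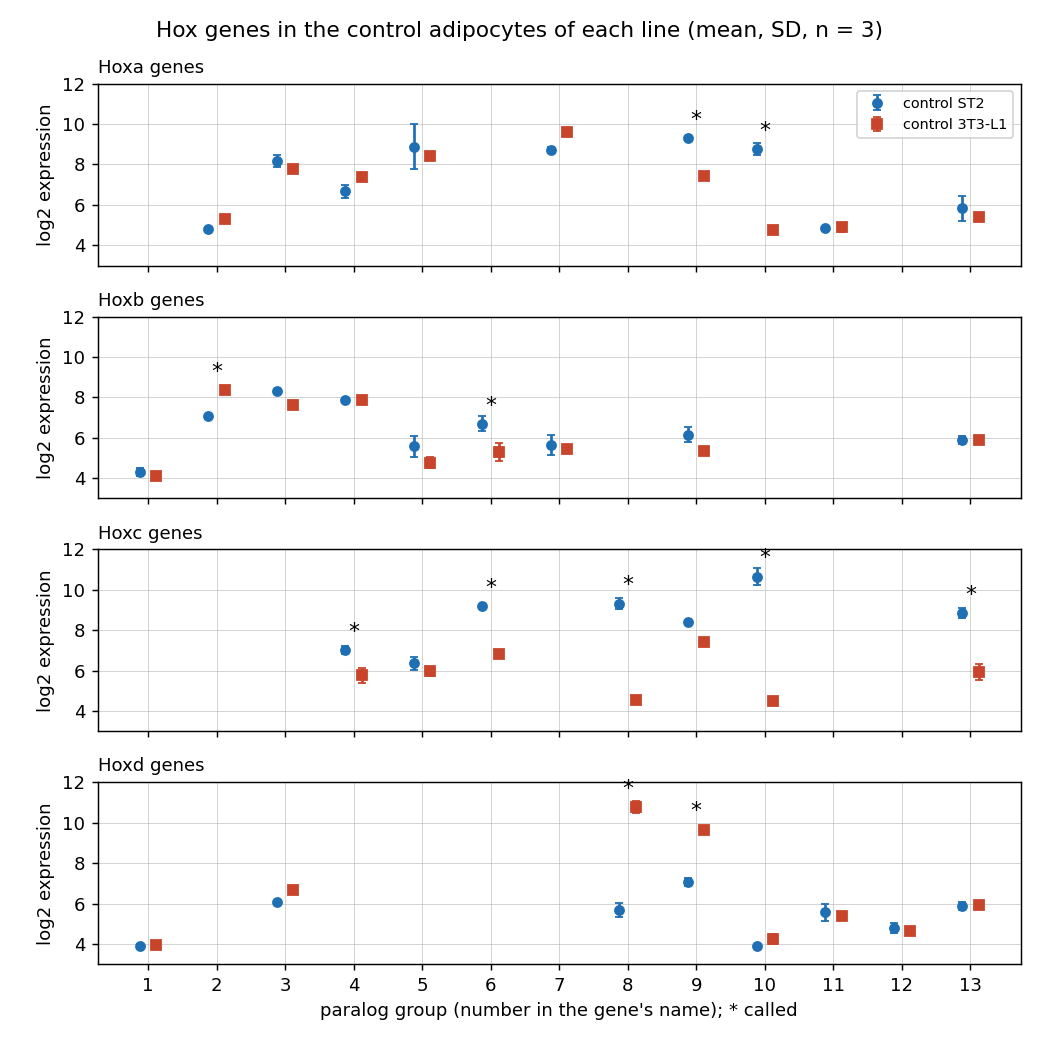
Log2 expression (RMA, vertical) of 33 Hox genes by paralog group (horizontal) in the A, B, C and D clusters, as the mean of 3 control ST2 arrays (blue circles) and 3 control 3T3-L1 arrays (red squares) with bars of 1 SD and an asterisk on called genes. Levels are to be compared between the lines at 1 gene only; the Hoxc genes of groups 4, 6, 8, 10 and 13 are higher in ST2 and Hoxd8 and Hoxd9 are higher in 3T3-L1.

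Other transcription factors of position followed no single direction. Of 53, 6 were called higher in ST2 and 4 higher in 3T3-L1, with a median of 0.02. Pitx1, a factor of the hindlimb, had values of 8.57, 8.15 and 8.54 in ST2 and 6.14, 5.85 and 6.30 in 3T3-L1. It was 5.0-fold higher in ST2 (log2 difference 2.32, SE 0.17, adjusted p = 1.11e-05). Emx2, Foxc1, Dlx5, Tbx15 and Tbx18 were also higher in ST2, by 2.23, 1.86, 1.38, 1.24 and 1.12. Gata6, with 6.50, 6.28 and 6.69 in ST2 and 9.05, 8.83 and 8.97 in 3T3-L1, was 5.5-fold higher in 3T3-L1 (log2 difference -2.46, SE 0.14, adjusted p = 2.84e-06). En1, Irx3 and Meis2 were higher in 3T3-L1, with log2 differences of -2.25, -1.47 and -1.24.

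Pathways that steer mesenchymal fate had members on both sides. Of 43 Wnt pathway genes, 7 were called higher in 3T3-L1 and 3 higher in ST2, with a median of 0.04, or -0.03 without control ST2 replicate 2. By role, the secreted amplifier Rspo2 was the one farthest toward ST2, with 11.61, 11.04 and 11.47 in ST2 and 5.01, 5.11 and 4.68 in 3T3-L1. Dkk3, a secreted member of the Dickkopf family, was higher in ST2 too (9.65, 8.89 and 9.37 in ST2 and 5.91, 5.97 and 6.01 in 3T3-L1), by 3.34. The ligand Wnt5a, with 3.85, 4.82 and 4.02 in ST2 and 6.97, 6.80 and 6.25 in 3T3-L1, was higher in 3T3-L1, with a log2 difference of -2.44 in 1 of its 4 probe sets. Of the receptors, Fzd4 and the coreceptor Lrp5 were higher in 3T3-L1 (-1.84 and -1.63), and Fzd7 was higher in ST2 (1.27). The inhibitors Dkk2 and Sfrp2 and the nuclear factor Lef1 were higher in 3T3-L1, with log2 differences of -1.43, -1.28 and -1.56. Of 37 genes of the BMP and TGF-β pathways, 7 were called higher in ST2 and 3 higher in 3T3-L1, with a median of 0.03, or -0.04 without that array. The ligands Tgfb3 and Bmp4 had values of 10.13, 9.71 and 10.13 in ST2 and 7.39, 7.38 and 7.19 in 3T3-L1 and of 8.38, 7.72 and 7.86 in ST2 and 5.85, 5.85 and 5.35 in 3T3-L1. Both were separated on every array, by 2.67 and 2.30. The antagonists divided. Grem1, Fstl3 and Nbl1 were higher in ST2 (2.73, 1.58 and 1.44) and Fst, follistatin, was higher in 3T3-L1 (-2.14). The receptor Tgfbr2 and the ligand Gdf5 were higher in 3T3-L1, with log2 differences of -1.40 and -1.74, and Id3, a target gene, was higher in ST2, by 1.94.

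Progenitor and skeletal lists held a few large differences. Of 33 preadipocyte and mesenchymal progenitor markers, 8 were called higher in ST2 and 4 higher in 3T3-L1, with a median of 0.20. Fap, a peptidase of activated fibroblasts, S100a4 and Cd44 were higher in ST2, by 2.84, 2.67 and 2.25, whereas Dlk1, Thy1, Sfrp2 and Klf2 (-1.26) were higher in 3T3-L1. Pdgfra, with 11.00, 10.62 and 11.05 in ST2 and 10.53, 11.17 and 11.05 in 3T3-L1, was not called. Of 21 osteoblast lineage genes, 3 were called, all higher in ST2, with a median of 0.12. They are Bmp4, Cdh11, a mesenchymal cadherin (12.60, 12.18 and 12.40 in ST2 and 9.83, 10.45 and 10.40 in 3T3-L1), and Dlx5. Of 20 chondrocyte markers, 1 was called in each direction, with a median of -0.01. Together these are 10% of the list, near the 10.2% of all genes. Prg4, lubricin, had 9.63, 9.18 and 9.95 in ST2 and 5.48, 5.69 and 5.05 in 3T3-L1 and was 18.2-fold higher in ST2 (log2 difference 4.18, SE 0.22, adjusted p = 1.48e-06), and Col11a1 was the other. Without 3T3-L1 replicate 2, 3 of them were called higher in 3T3-L1.

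Marrow niche factors were among the genes higher in ST2. Of 24 measured, 8 were called higher in ST2 and 2 higher in 3T3-L1, with a median of 0.28. Kitl, the stem cell factor that blood progenitors depend on, had log2 values of 13.47, 13.08 and 13.30 in ST2 and 10.96, 10.54 and 11.18 in 3T3-L1. It was 5.26-fold higher in ST2 (log2 difference 2.40, SE 0.18, adjusted p = 1.61e-05), in all 4 of its probe sets. Cxcl12, which holds blood stem cells in marrow, was bright in both lines, with 13.77, 13.50 and 13.91 in ST2 and 12.26, 12.61 and 12.73 in 3T3-L1, and was 2.29-fold higher in ST2 (log2 difference 1.19, SE 0.17, adjusted p = 0.000762). Csf1, the growth factor of macrophages and osteoclasts, had 11.84, 11.72 and 12.12 in ST2 and 9.66, 8.95 and 9.09 in 3T3-L1. It differed by 2.66 (SE 0.20, adjusted p = 1.29e-05). Vcam1 (2.23), Il34 (1.86), Foxc1 and Il7 (1.70) were higher in ST2, and Alcam (5.98, 6.10 and 6.01 in ST2 and 10.35, 9.70 and 9.88 in 3T3-L1) and Postn were higher in 3T3-L1, Alcam, with a log2 difference of -3.95.

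Of 27 chemokine genes, 5 were called higher in ST2 and 3 higher in 3T3-L1, with a median of 0.01. Ccl2, which draws monocytes, had values of 11.39, 10.55 and 11.34 in ST2 and 6.05, 6.03 and 5.92 in 3T3-L1. The lines were apart on every array, and Ccl2 was 34.2-fold higher in ST2 (log2 difference 5.09, SE 0.21, adjusted p = 3.1e-07). Its relatives Ccl9 and Ccl7 were higher in ST2 as well, with 11.92, 11.44 and 11.95 in ST2 and 7.73, 7.18 and 7.52 in 3T3-L1 for Ccl9 and log2 differences of 4.29 and 3.81. Ccl6, Ccl25 and the scavenger receptor Ackr3 were higher in 3T3-L1, with log2 differences of -2.01, -1.85 and -1.35. Of 35 cytokines and receptors, 7 were called higher in ST2 and 2 higher in 3T3-L1, with a median of 0.14. Il1rn, Csf1, Csf2rb (2.48), Il17ra (1.96) and Tnfrsf1b (1.77) were higher in ST2, and Il1rap (-1.69) and Lifr (-1.12) were higher in 3T3-L1. Lifr, called by 1 of its 3 probe sets, lost its call without control ST2 replicate 2 or 3T3-L1 replicate 1. Of the 23 genes of the complement list, 2 were called, which is 8.7% against 10.2% of all genes, and the median was -0.0028. They were Masp1 and C1qtnf1, a C1q-related gene that is not a complement component, higher in ST2 by 1.78 and 2.32. Without control ST2 replicate 2, 1 was called higher in 3T3-L1.

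Most genes that interferons induce were higher in ST2. Of 41 interferon-stimulated genes, 26 were called higher in ST2, 2 higher in 3T3-L1 and 13 were not called, with a median of 1.47. The share, 63.4%, stands against 4.68% of all genes. Oasl2, a relative of the sensors of viral RNA, had log2 values of 10.25, 8.24 and 9.17 in ST2 and 5.24, 5.34 and 4.77 in 3T3-L1. No 3T3-L1 array was above 6 and no ST2 array below 8, and Oasl2 was 17.2-fold higher in ST2 (log2 difference 4.10, SE 0.41, adjusted p = 9.63e-05). Ifit1, which holds back translation of viral RNA, had 10.88, 8.999 and 9.67 in ST2 and 5.78, 6.22 and 5.33 in 3T3-L1, or was 16.8-fold higher in ST2 (log2 difference 4.07, SE 0.41, adjusted p = 0.000102). Usp18, a brake on the type I receptor, had 11.77, 10.37 and 10.61 in ST2 and 6.58, 7.69 and 7.22 in 3T3-L1 and a log2 difference of 3.76. Rtp4, Oas1a and Ifi202b were higher by 3.45, 2.88 and 2.62. The ST2 arrays were not alike in these genes. The list mean was 9.51, 8.63 and 8.96 on ST2 replicates 1 to 3 and 7.59 to 7.67 on the 3T3-L1 arrays, so that replicate 1 was the highest. Without ST2 replicate 1, 24 were called, and without replicate 2, 27. Ifi27l2a and Isg20 went against the list, with 8.10, 6.93 and 7.07 in ST2 and 8.96, 9.42 and 9.74 in 3T3-L1 for the first and differences of -2.01 and -1.59. Irf1, a factor of the interferon response, had 10.64, 10.54 and 10.71 in ST2 and 10.78, 10.85 and 10.77 in 3T3-L1 and a log2 difference of -0.17 (SE 0.12, adjusted p = 0.408).

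Interferon-inducible GTPases, which attack vacuoles of microbes, had 8 of 10 measured members called higher in ST2 and 0 higher in 3T3-L1, with a median of 1.93. Iigp1 had values of 11.46, 9.89 and 10.68 in ST2 and 5.80, 6.31 and 6.03 in 3T3-L1. It was 24.8-fold higher in ST2 (log2 difference 4.63, SE 0.33, adjusted p = 1.03e-05). Gbp2b had 9.63, 8.83 and 9.55 in ST2 and 5.06, 5.04 and 5.04 in 3T3-L1 and was 19.5-fold higher in ST2 (log2 difference 4.29, SE 0.20, adjusted p = 6.6e-07). Gbp6, Irgm1, Gbp3 and Irgm2 were higher by 2.47, 2.41, 2.00 and 1.87. Guanylate-binding protein genes are close in sequence, and binding across them was not tested. Of 20 genes of MHC class I and antigen processing, 6 were called higher in ST2 and 1 higher in 3T3-L1, with a median of 0.56. Psmb9, a subunit of the immunoproteasome, had 10.74, 9.90 and 10.46 in ST2 and 7.14, 6.81 and 6.87 in 3T3-L1. It was 10.8-fold higher in ST2 (log2 difference 3.43, SE 0.21, adjusted p = 3.43e-06). Nlrc5, the transactivator of class I genes, and Tap1 and Tap2, the peptide transporter, were higher in ST2 by 3.00, 2.37 and 1.25, the Tap1 value resting on 1 of its 4 probe sets. B2m, the light chain of class I, was bright in both lines (14.56, 14.20 and 14.38 in ST2 and 14.05, 13.89 and 13.76 in 3T3-L1), with a log2 difference of 0.48 (SE 0.14, adjusted p = 0.0434). The heavy chain genes of the lines can differ in sequence. The 9 probe sets of H2-D1 gave differences from -0.27 to 7.60, and 3 of them were called higher in ST2 while the brightest was not called. Cd1d1, which presents lipids, was higher in 3T3-L1, with a log2 difference of -1.63.

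Promoters were at hand for 17 of the 26 interferon-stimulated genes called higher in ST2. The core GAAANNGAAA of the interferon-stimulated response element, on either strand, was in the promoters of 11 of these 17 genes (64.7%) and in 3.44% of all 32851 promoters. Counted by promoter, as that last share is, the core was in 12 of the 20 promoters of the called genes (60%). Over all measured members of the list it was in 15 of 29 genes with a promoter and in 16 of 36 promoters (44.4%). A match describes the letters only. The windows below are shown because they carry this core, in capitals, upstream of the start of genes described here; they are read on the strand of the gene, and TTTCNNTTTC is the core on the other strand.
Ifit1, chr19:34640775-34640804 (plus strand, GRCm38.p6): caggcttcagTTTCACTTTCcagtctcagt
Ifit1, chr19:34640794-34640823 (plus strand, GRCm38.p6): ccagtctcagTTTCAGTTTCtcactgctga
Oas1a, chr5:120907526-120907555 (minus strand, GRCm38.p6): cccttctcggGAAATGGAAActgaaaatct
Cxcl10, chr5:92349083-92349112 (minus strand, GRCm38.p6): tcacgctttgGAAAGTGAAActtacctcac
In Ifit1, which differed by 4.07, both matches lie within 104 bases of the start. Cxcl10 has its match 213 bases before the start, and had values of 7.37, 6.72 and 6.66 in ST2 and 5.81, 5.75 and 5.96 in 3T3-L1 and a difference of 1.07, which was 0.84 and not called without ST2 replicate 1.

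Most genes of mitosis were higher in ST2 as well. Of 47 measured, 31 were called higher in ST2, 1 higher in 3T3-L1 and 15 were not called, with a median of 1.43 and 45 members above 0. Top2a, which untangles chromosomes, had log2 values of 9.92, 9.17 and 9.66 in ST2 and 5.82, 6.29 and 5.96 in 3T3-L1. No 3T3-L1 array reached 7 and no ST2 array was below 9, and Top2a was 11.8-fold higher in ST2 (log2 difference 3.56, SE 0.20, adjusted p = 2.48e-06) by its brightest probe set, 1 of 3. Ube2c, which works with the anaphase-promoting complex, had 10.24, 9.37 and 9.80 in ST2 and 6.34, 6.41 and 6.37 in 3T3-L1, or was 10.8-fold higher in ST2 (log2 difference 3.43, SE 0.20, adjusted p = 2.74e-06). Ccnb2, a mitotic cyclin, had 9.22, 8.15 and 8.64 in ST2 and 5.18, 5.46 and 5.30 in 3T3-L1 and was 10.2-fold higher in ST2 (log2 difference 3.36, SE 0.24, adjusted p = 9.58e-06). Birc5, Cenpf and Mki67, the source of the Ki-67 antigen, were higher in ST2 by 3.26, 3.11 and 2.98. Anln, an organizer of the cleavage furrow, went the other way, with 9.57, 8.55 and 9.03 in ST2 and 11.05, 10.81 and 10.59 in 3T3-L1 and a difference of -1.77. The list mean was 7.48 to 8.09 on the ST2 arrays and 6.26 to 6.36 on the 3T3-L1 arrays. With probe sets of the plain _at kind alone, which 39 of the 47 genes have, 17 were called higher in ST2. Of 42 genes of DNA replication and S phase, 8 were called higher in ST2 and 0 higher in 3T3-L1 (1 without 3T3-L1 replicate 3), with a median of 0.46. Tk1, which salvages thymidine, had 9.11, 8.70 and 8.88 in ST2 and 5.54, 6.06 and 5.62 in 3T3-L1. It was 8.9-fold higher in ST2 (log2 difference 3.15, SE 0.17, adjusted p = 1.99e-06). Rrm2, Mcm5, Uhrf1, Mcm6 and Cdt1 were higher by 2.95, 2.39, 2.33, 1.71 and 1.28, and Pcna was not called (0.60).

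The letters TTTGAA of the cell cycle homology region, on either strand, were in the promoters of 23 of the 28 called mitotic genes with a promoter (82.1%), of 30 of the 39 measured members with one, and in 17.9% of all promoters. CCAAT was in 24 of the 28 (85.7%) and in 37.4% of all promoters. Counted by promoter, TTTGAA was in 25 of the 30 promoters of the called genes (83.3%) and CCAAT in 26 of them (86.7%). Each motif was counted without regard to the others. Windows with these letters, on either strand, in capitals are given for genes described above.
Ccnb2, chr9:70421704-70421733 (minus strand, GRCm38.p6): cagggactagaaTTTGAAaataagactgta
Top2a, chr11:99024195-99024224 (minus strand, GRCm38.p6): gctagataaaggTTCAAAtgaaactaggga
Ube2c, chr2:164769888-164769917 (plus strand, GRCm38.p6): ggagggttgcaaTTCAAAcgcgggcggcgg
Mki67, chr7:135716460-135716489 (minus strand, GRCm38.p6): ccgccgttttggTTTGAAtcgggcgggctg
In Top2a and Ube2c the letters lie 23 and 29 bases before the start, in Mki67 98 bases and in Ccnb2 167 bases before it.

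Inhibitors of the cell cycle were among the genes higher in 3T3-L1. Of 32 CDK inhibitors, D cyclins and p53 targets, 7 were called higher in ST2 and 5 higher in 3T3-L1, with a median of 0.26. Cdkn2a, the gene of p16 and p19ARF, had values of 5.51, 4.78 and 5.42 in ST2 and 8.31, 8.57 and 8.95 in 3T3-L1, and its neighbour Cdkn2b, the gene of p15, of 6.98, 7.35 and 7.30 in ST2 and 10.75, 10.58 and 10.02 in 3T3-L1. The lines were separated on every array in both, and Cdkn2a was 10.3-fold higher in 3T3-L1 (log2 difference -3.37, SE 0.22, adjusted p = 6.43e-06). Cdkn2c (-1.31) and Rbl2, a relative of the retinoblastoma protein (-1.73), were also higher in 3T3-L1. Ccnd1, cyclin D1, had 11.35, 10.83 and 11.22 in ST2 and 8.05, 8.88 and 8.59 in 3T3-L1. It was 6.18-fold higher in ST2 (log2 difference 2.63, SE 0.22, adjusted p = 2.91e-05), in all 3 of its probe sets. Mdm2, whose protein destroys p53 and which p53 itself induces, had 11.33, 11.29 and 11.58 in ST2 and 14.55, 14.45 and 14.49 in 3T3-L1 and was 8.57-fold higher in 3T3-L1 (log2 difference -3.10, SE 0.13, adjusted p = 3.27e-07), in all 3 of its probe sets. Cdkn1a, the p53 target p21, with 13.36, 12.90 and 13.26 in ST2 and 12.50, 12.54 and 12.16 in 3T3-L1, had a log2 difference of 0.78 (SE 0.16, adjusted p = 0.00824). Of other p53 targets, Plk3, Zmat3, Phlda3, Aen and Trp53inp1 were called higher in ST2, by 1.93, 1.37, 1.10, 1.08 and 1.07. Phlda3 lost its call without ST2 replicate 1, Aen without ST2 replicate 3 and Trp53inp1 without 3T3-L1 replicate 2.

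Among hormone and stress genes, most called members were higher in ST2. Of 24 glucocorticoid-induced genes, 9 were called higher in ST2 and 2 higher in 3T3-L1, with a median of 0.18. Fkbp5, a cochaperone of the receptor, had 12.89, 12.73 and 12.93 in ST2 and 10.70, 10.70 and 11.40 in 3T3-L1, and Sgk1, a kinase, had 12.71, 12.26 and 12.55 in ST2 and 10.09, 9.51 and 9.78 in 3T3-L1. Both were higher on every ST2 array, by 1.92 and 2.71. Klf15 and Zbtb16, with 6.38, 5.83 and 6.61 in ST2 and 9.75, 9.79 and 10.43 in 3T3-L1, were the 2 higher in 3T3-L1, and Zbtb16 was 13.1-fold higher in 3T3-L1 (log2 difference -3.72, SE 0.24, adjusted p = 5e-06). The time since dexamethasone was first added differed between the groups. Of 34 nuclear receptors, 4 were called higher in ST2 and 1 higher in 3T3-L1 (2 without ST2 replicate 3), with a median of -0.04. Esr1, the estrogen receptor α gene, was higher in ST2 by 2.44 in 1 of 3 probe sets, and Nr2f1, Vdr, the vitamin D receptor, and Rarg by 2.43, 2.08 and 1.02. Nr3c2, the mineralocorticoid receptor, was higher in 3T3-L1, with a log2 difference of -1.65. Rarg lost its call without ST2 replicate 3 or 3T3-L1 replicate 3.

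Of 24 genes of the unfolded protein response, 7 were called higher in ST2 and 0 higher in 3T3-L1, with a median of 0.52. Creld2 had values of 10.67, 11.16 and 11.85 in ST2 and 9.23, 8.77 and 8.61 in 3T3-L1, and Manf, a secreted protein of the endoplasmic reticulum, had 12.47, 12.84 and 13.25 in ST2 and 11.49, 11.15 and 11.06 in 3T3-L1. ST2 replicate 3 was the highest in both, and the differences were 2.36 and 1.62. Sdf2l1, Hsp90b1 and Pdia6 were higher in ST2 by 1.47, 1.39 and 1.13. Hspa5, the chaperone BiP, had 13.68, 13.86 and 14.10 in ST2 and 13.83, 13.69 and 13.35 in 3T3-L1 and a log2 difference of 0.26 (SE 0.17, adjusted p = 0.369). Without ST2 replicate 3, 4 genes were called higher in ST2 and 2 higher in 3T3-L1, and Pdia6 was among those lost. Of 27 immediate early genes, 11 were called higher in ST2 and 1 higher in 3T3-L1, with a median of 0.99. Fosl1, with 10.38, 9.77 and 10.49 in ST2 and 6.47, 6.33 and 6.40 in 3T3-L1, and Dusp6, a phosphatase that ERK induces, with 10.36, 9.47 and 10.65 in ST2 and 6.93, 6.09 and 6.27 in 3T3-L1, were separated on every array. They differed by 3.81 and 3.74. Egr1 had 11.01, 10.23 and 13.13 in ST2 and 9.63, 8.20 and 8.79 in 3T3-L1, with 1 ST2 array far above the others, and was not called without 3T3-L1 replicate 2 or 3. The 11 became 6 without 3T3-L1 replicate 2 and 13 without control ST2 replicate 2.

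Prostaglandin genes were called in both directions. Of 19 genes, 4 were called higher in 3T3-L1 and 2 higher in ST2, with a median of -0.07. Ptgis, the prostacyclin synthase, had 8.14, 8.14 and 8.24 in ST2 and 11.24, 11.34 and 11.17 in 3T3-L1, and Ptges, a synthase of prostaglandin E, had 7.79, 7.56 and 7.79 in ST2 and 10.14, 10.25 and 10.33 in 3T3-L1. Both were higher on every 3T3-L1 array, Ptgis 8.43-fold higher in 3T3-L1 (log2 difference -3.08, SE 0.12, adjusted p = 2.14e-07). Cbr1, a carbonyl reductase, and Ptgfr, the receptor of prostaglandin F, were higher in 3T3-L1, with log2 differences of -3.51 and -2.50. Ptgs2, the inducible cyclooxygenase, had 5.98, 5.80 and 7.60 in ST2 and 4.56, 3.90 and 4.16 in 3T3-L1, was dim in all but 1 array and was called higher in ST2 by 2.25. Ptgir was called by 1.09. Without control ST2 replicate 2, 4 were called higher in ST2, and without ST2 replicate 3, which ended the call of Ptgir, 1.

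Imprinted genes included some of the largest differences in both directions. Of 25 measured, 3 were called higher in 3T3-L1, namely Dlk1, Igf2 and Peg3, and 2 higher in ST2, namely Grb10 and Impact, with a median of -0.02. Peg3 had values of 5.64, 5.77 and 5.23 in ST2 and 9.10, 8.42 and 8.50 in 3T3-L1. It was 8.74-fold higher in 3T3-L1 (log2 difference -3.13, SE 0.21, adjusted p = 6.81e-06), in 3 of 5 probe sets. Impact, with 1.04, lay near the fold minimum and was lost without ST2 replicate 1 or 3 and without 3T3-L1 replicate 2. Gnas (13.97 ± 0.21 in ST2 and 13.85 ± 0.05 in 3T3-L1) was not called.

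Sra1, the gene of SRA, which the series altered on other arrays, had log2 values of 11.14, 10.67 and 11.24 in ST2 and 11.86, 11.67 and 11.84 in 3T3-L1 in these controls. All 3T3-L1 arrays lay above all ST2 arrays, with a log2 difference of -0.78 (SE 0.17, adjusted p = 0.0088), which passed the test and not the fold minimum. Of 23 genes of SRA and nuclear receptor coregulators, 1 was called, Ppargc1a, and the median was -0.15, or 0.01 without control ST2 replicate 2. Ddx5 and Ddx17, helicases known to bind SRA, differed, with log2 differences of -0.48 and -0.12 and were not called.

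Most lists of housekeeping genes and of other cell types had few or no calls. Of 31 ribosomal proteins limma called 0, with a median of 0.07, list means of 12.89 to 13.27 on the 6 arrays 8 members at an unadjusted p under 0.05 and 2 at an adjusted p under 0.05. There was 1 called higher in ST2 without control ST2 replicate 2. Of 21 macrophage and blood genes limma called 0, with a median of -0.01, 2 members at an unadjusted p under 0.05 and 1 at an adjusted p under 0.05. That one was Cd14, a receptor of bacterial lipopolysaccharide on monocytes, with 7.99, 7.53 and 8.27 in ST2 and 7.39, 6.55 and 6.97 in 3T3-L1, a log2 difference of 0.96 and an adjusted p of 0.0189, short of the fold minimum. The mean of that list was 5.82 to 6.05 on the ST2 arrays and 5.79 to 5.91 on the 3T3-L1 arrays, and without 3T3-L1 replicate 1, 2 members were called higher in ST2. Of 18 endothelial genes limma called 0, with a median of 0.04, 2 members at an unadjusted and 1 at an adjusted p under 0.05. Of 11 genes of X inactivation and the Y chromosome it called 0, with a median of -0.02, 4 members at an unadjusted and 3 at an adjusted p under 0.05. Pericyte and smooth muscle markers had 1 of 13 called higher in ST2, Pdgfrb (1.71), and 2 higher in 3T3-L1, Des and Myh11, which is 23.1% of the list against 10.2% of all genes. Their median was 0.02. Single members were called higher in 3T3-L1 among 22 skeletal muscle genes (Des), 16 epithelial genes (Krt18, with 4.65, 4.91 and 5.30 in ST2 and 7.70, 7.10 and 6.96 in 3T3-L1) and 17 neuronal genes (Snap25, -1.70), with medians of -0.0009, 0.07 and 0.02.

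Differences were also set out by chromosome, a view chosen after the values had been seen. Over 8034 genes with a mean of at least 8, the median difference was -0.12, and 59.3% of the genes were lower in ST2. Of these 8034 genes, 464 were called higher in ST2 and 642 higher in 3T3-L1, which is the background for the counts by chromosome. Chromosome 8 stood lowest, with a median of -0.67, 86.5% of its 473 genes lower in ST2, 11 called higher in ST2 and 114 called higher in 3T3-L1. Chromosomes 16 and 5 came next, with medians of -0.47 and -0.43. Chromosome 10 stood highest, with a median of 0.40, 25.4% of its 398 genes lower in ST2, 59 called higher in ST2 and 15 higher in 3T3-L1. Without control ST2 replicate 2 the median over all chromosomes was 0.00, that of chromosome 8 was -0.51 and that of chromosome 10 was 0.54. All other chromosomes lay between -0.31 and 0.08 on all 6 arrays. The number of copies of a chromosome in either line was not tested.

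A short run of genes around Mdm2 on chromosome 10 went against that chromosome. Slc35e3, of a family of nucleotide sugar carriers, had log2 values of 9.85, 9.58 and 9.95 in ST2 and 14.31, 14.47 and 14.54 in 3T3-L1. It was 25.1-fold higher in 3T3-L1 (log2 difference -4.65, SE 0.14, adjusted p = 5.28e-08). Cpm, a carboxypeptidase, had 4.61, 4.90 and 4.52 in ST2 and 9.62, 9.63 and 10.68 in 3T3-L1, or was 39.4-fold higher in 3T3-L1 (log2 difference -5.30, SE 0.27, adjusted p = 9.9e-07). With Mdm2 between them, these 3 follow each other in the order of the measured genes. The number of copies of this stretch in either line was not tested, which bears on the value of Mdm2 as a p53 target as well. The next genes on either side, Cpsf6 (0.06) and Nup107 (0.40), were not called, nor were the other members of the run of 15 except Dyrk2, which was higher in ST2 (1.13).

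**Figure D5:**
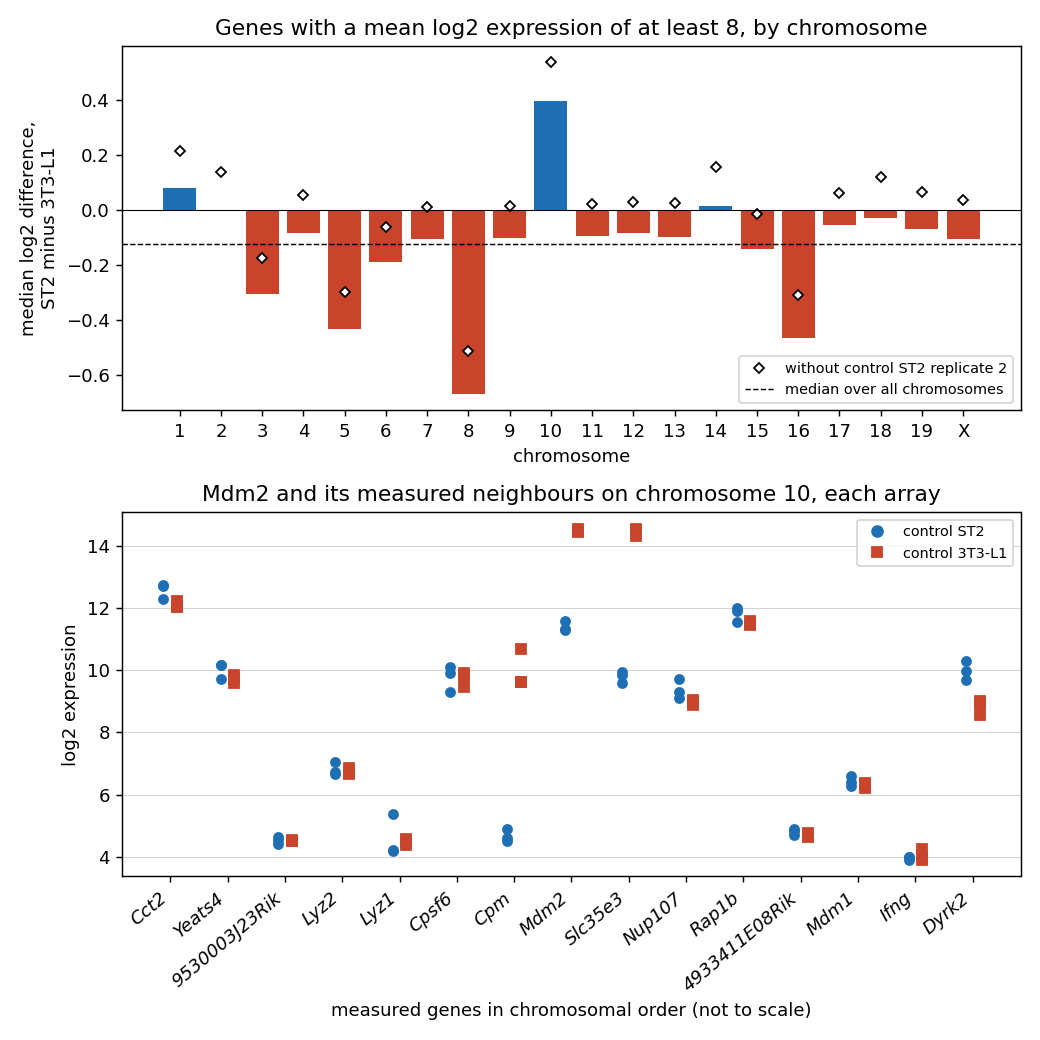
Above, median log2 difference (ST2 minus 3T3-L1, vertical) of genes with a mean of at least 8 on each chromosome (horizontal), as bars, with open diamonds for the median without control ST2 replicate 2 and a dashed line at the median over all chromosomes. Below, log2 expression (RMA, vertical) on each control ST2 (blue circles) and 3T3-L1 (red squares) array for Mdm2 and 7 measured genes on each side in chromosomal order, where Cpm, Mdm2 and Slc35e3 are the 3 called higher in 3T3-L1.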

How the data were processed

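Total RNA of the 6 control cultures had been hybridised to Affymetrix arrays of the mouse genome. The authors deposited log2 expression values per probe set, made by robust multi-array average. That method corrects background, sets the probe values of all arrays to 1 distribution and summarizes the probes of a set. The deposited values still differed in spread, with an upper quartile of 8.39 on control ST2 replicate 2 and of 8.64 to 8.78 on the other arrays. The submitters' processing notes name affy, RMA and limma, with no version in the sources used here. Quantile scaling of this kind hides a shift shared by all genes, and probe summaries compress large differences, so that fold changes are those of the log2 values. Of 45101 probe sets, 64 controls were left out. Of the 45037 tested, 34945 had 1 gene symbol in the platform annotation, 932 several and 9160 none, and 34741 of the first were matched to RefSeq. A gene was read by its single-symbol probe set of highest mean. The other 6 arrays of the series entered only 1 alternative and the variance filter.

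Groups were taken from the labels. The 2 groups were fitted with limma 3.58.1 (lmFit and eBayes) in R 4.3.3 without a block, p-values were adjusted by Benjamini-Hochberg over all probe sets, and a call needed an adjusted p under 0.05 and a log2 difference of at least 1. Values after ± are SDs of 3 arrays and SE is that of the fit. Deviations of same-numbered arrays from their group means correlated at 0.26, 0.12 and -0.27. With 3 arrays a group, these correlations cannot decide whether cultures were handled in pairs by replicate number. The cultures, the 49 gene lists (1330 of 1462 entries measured) and the tests were chosen with earlier results of these data known. Named were the 12 called genes with the largest differences each way whose groups did not overlap, up to 6 called members of each list each way, up to 4 uncalled members of highest mean, the adipocyte markers Pparg, Cebpa, Fabp4, Adipoq, Slc2a4 and Lep, Sra1, and the genes nearest the fold minimum. The adipocyte marker Plin1 was also to be named, but had no single-symbol probe set and was not read. Hoxc4, Hoxb6, H2-D1, the neighbours of Mdm2 and the genes of the last section were chosen after their values were seen. Sequence differences between the lines under a probe set, and cross-hybridization, were not tested. The sources used here give no scan batches. Other choices of scaling, filter, weights, call rule, probe set and arrays were tried.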

Additional observations from a re-analysis of the deposited data

How the results depend on the processing

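Of the 263 named genes that were called, 0 were called the opposite way under an alternative that gave them a value. The mean filter gave a value for 248, plain _at probe sets for 237 and the others for all. A change of sign together with a lost call was not counted. The number of probe sets called stayed between 3417 and 3938 under the block, scaling, filter, weight and prior alternatives. With no fold minimum it was 9435 (3828 higher in ST2 and 5607 higher in 3T3-L1), and with treat, which tests against the fold minimum itself, 1333 (650 and 683). Treat called 5 cholesterol genes, 13 interferon-stimulated genes and 19 mitotic genes, and 87 of the 263 named genes lost their call. With plain _at probe sets, which 39 of the 47 measured mitotic genes have, 17 were called in place of 31, and the cause of the remaining loss was not tested. With 1 array left out, calls ranged from 3759 to 4125, with 1610 to 2160 higher in ST2 and 1699 to 2510 higher in 3T3-L1. In the same fits 11 to 13 adipocyte markers and 9 to 12 cholesterol genes were called higher in 3T3-L1, and 24 to 27 interferon-stimulated and 29 to 34 mitotic genes higher in ST2. The share higher in ST2, 45.6%, was 56% without control ST2 replicate 2, 54.9% with array weights, 53.4% with arrays centred on bright probe sets, 50.9% after a second quantile normalization and 39.2% without ST2 replicate 1. Array weights raised the immediate early genes called higher in ST2 from 11 to 19 and lowered the glycolysis genes called higher in 3T3-L1 from 4 to 1. The medians of the adipokine and basement membrane lists turned positive after a second quantile normalization (0.02 and 0.04). With 1 array left out, the medians of 18 of the 49 lists changed sign, those of 17 more moved by over 1.5 times, among them Hox genes (0.06 without ST2 replicate 2), glucocorticoid-induced genes (0.07 without ST2 replicate 3), osteoblast genes (0.06 without ST2 replicate 2) and progenitor markers (0.09 without 3T3-L1 replicate 1), and 14 did neither. A replicate block gave 3872 probe sets, which included all 3858, and no named call was lost. Whether same-numbered cultures of the lines belong together is unknown. No detection calls were used, so whether a low log2 value lies above background is unknown, and 3 arrays a line limit the precision.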

Other observations

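Some of the largest differences lay in genes outside the lists, picked here after their values were seen. Toward ST2 stood Hmga2, a chromatin protein of fetal and mesenchymal cells, with log2 values of 12.56, 12.01 and 12.36 in ST2 and 7.12, 6.83 and 7.33 in 3T3-L1. It was 37.3-fold higher in ST2 (log2 difference 5.22, SE 0.18, adjusted p = 1.1e-07), in all 4 of its probe sets. Mgp, the inhibitor of calcification in vessels and cartilage, had 12.83, 12.71 and 13.01 in ST2 and 8.73, 9.06 and 9.11 in 3T3-L1 and was 14.7-fold higher in ST2 (log2 difference 3.88, SE 0.15, adjusted p = 1.99e-07). The peptidase gene Enpep, the cathepsin gene Ctsh, the aldehyde dehydrogenase gene Aldh3a1 and Cd24a, a surface antigen of progenitors, were higher in ST2 with log2 differences of 5.34, 5.07, 4.64 and 3.85. Toward 3T3-L1 stood Klb, the coreceptor through which FGF21 acts on fat cells, with 6.96, 7.22 and 6.12 in ST2 and 11.72, 11.76 and 11.67 in 3T3-L1. It was 31-fold higher in 3T3-L1 (log2 difference -4.96, SE 0.25, adjusted p = 9.25e-07), while 1 of its 2 probe sets was called. Ffar4, a receptor for long-chain fatty acids, had 4.76, 5.38 and 4.89 in ST2 and 9.60, 9.52 and 8.42 in 3T3-L1 and was 18-fold higher in 3T3-L1 (log2 difference -4.17, SE 0.30, adjusted p = 1.06e-05). Slc1a3, a glutamate carrier, Cdo1, which makes taurine precursors from cysteine, Ptn, a heparin-binding growth factor, Thbd, thrombomodulin, and Sod3, the extracellular superoxide dismutase, were higher in 3T3-L1 with log2 differences of -5.21, -5.19, -5.18, -4.74 and -3.60.

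Neighbouring genes were also read together, in 18017 windows of 7 measured genes in chromosomal order, and the windows of highest and lowest median were picked after the values were seen. Besides the Hoxc and Hoxd clusters and windows of chromosome 9 around Myo5c (median -1.40) and Plod2 (median 1.36), these held 3 groups of related genes. One was the apolipoprotein genes of chromosome 7, higher in 3T3-L1. Apoc1, Apoe, Apoc2 and Apoc4 all differed, at -7.45, -2.04, -1.60 and -1.43. Apoc4 had values of 8.76, 8.20 and 8.37 in ST2 and 9.64, 10.07 and 9.90 in 3T3-L1, and no array of one line reached the other. Toward ST2, a window of chromosome 9 held the inflammatory caspase genes and Pdgfd, a growth factor for mesenchymal cells. Casp1, which matures interleukin-1β, had 10.53, 9.79 and 10.25 in ST2 and 5.84, 5.36 and 5.46 in 3T3-L1 and was 24.9-fold higher in ST2 (log2 difference 4.64, SE 0.20, adjusted p = 4.47e-07). Casp4, Casp12 and Pdgfd differed by 1.38, 1.27 and 4.12, and Mmp13 is near them. A window of chromosome 1 held genes of the interferon-inducible p200 family. Mndal had 10.15, 9.20 and 9.52 in ST2 and 5.50, 5.78 and 5.72 in 3T3-L1, and was 15.5-fold higher in ST2 (log2 difference 3.96, SE 0.22, adjusted p = 2.17e-06). Ifi207, Ifi202b and Ifi204 were higher in ST2 by 2.86, 2.62 and 1.40, while Ifi203, in their midst, was at -0.03 (SE 0.14, adjusted p = 0.928 by limma). These genes are close in sequence, and binding across them was not tested.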
